A study of Homo sapiens with 6 samples.

Results

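The genes described here are 10 genes of fatty acid synthesis and its regulator SREBP1: SREBF1, ACLY, ACSS2, ACACA, FASN, ME1, SCD, ELOVL6, FADS1 and FADS2. They were chosen by name, as the rows of the gene count table that carry these symbols, and are 10 of the 58735 genes listed. LoVo is an established human CRC line, and its cells carried either a negative control siRNA (si-NC, 3 samples) or an siRNA against the splicing factor SRSF11 (si-SRSF11, 3 samples). Poly(A) RNA was read on an Illumina sequencer in pairs of 150 bp. No genotype, further treatment or time after transfection is given for either group, and the sources used here do not say which of the SRSF11 siRNAs was sequenced. Both groups come from 1 cell line. The RNA samples are described as independent without saying whether they came from separate cultures, so p-values measure the spread between these samples, part of which may be technical. The comparison asks whether the fatty acid genes follow the sterol synthesis genes when SRSF11 is depleted.

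Fatty acid synthesis starts from citrate, which leaves the mitochondria and is cleaved to acetyl-CoA in the cytosol. Acetyl-CoA carboxylase makes malonyl-CoA, fatty acid synthase builds palmitate from it with electrons from NADPH, and elongases and desaturases turn palmitate into longer and unsaturated fatty acids. SREBP1, encoded by SREBF1, is a membrane-bound transcription factor that is escorted by SCAP, held in the endoplasmic reticulum by INSIG proteins and cleaved before it enters the nucleus. SREBP1 is known mainly for driving the fatty acid genes, and SREBP2, encoded by SREBF2, mainly for driving the sterol genes. Many tumours, CRC among them, make fatty acids even where the blood supplies them.

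Library totals ran from 14369525 to 15514404 counts in si-NC and from 15688702 to 16685719 in si-SRSF11. A splicing panel of the study brackets the library names with the conditions exchanged, so the groups follow the labels, and SRSF11 was read first as a check. It fell to 57.2% of its si-NC level, from 86.5 ± 1.90 to 49.5 ± 0.952 CPM (SD, n = 3), where CPM is the count per 1e+06 counts of the TMM-scaled library. Of 12 colorectal epithelial markers all were tested, and their summed level was 6330 to 6710 CPM in si-NC and 6430 to 6840 CPM in si-SRSF11. Of these, KRT20 and CEACAM5 were near absent, with a mean of 0.701 and 1.07 CPM in si-NC. CDX1 and CDX2, intestinal transcription factors, were called higher, by 0.31 and 0.40 on the log2 scale (adjusted p = 0.0012 and 0.00038 by edgeR), 10 of the 12 markers were not called, and the part of these shifts in the results below was not tested. ADIPOQ, LEP, FABP4 and LPL, markers of adipocytes, a cell type rich in the enzymes described here, had 0 counts in all 6 libraries. The summed level of the 7 adipocyte markers was 3.55 to 4.88 CPM in si-NC and 5.85 to 6.26 CPM in si-SRSF11. CIDEC, a lipid droplet protein, was the 1 adipocyte marker that passed the filter on low counts, and it was called higher. It rose from 3.57 ± 0.658 to 5.40 ± 0.149 CPM (SD, n = 3), by 0.59 on the log2 scale (adjusted p = 0.019 by edgeR). The part of this difference in the results below was not tested. The 7 hepatocyte markers summed to 109 to 113 CPM in si-NC and 130 to 133 CPM in si-SRSF11, most of it HNF4A, a factor that intestinal epithelium also expresses. HNF4A was called higher, by 0.27 on the log2 scale (adjusted p = 0.00054 by edgeR), the 1 call among the 3 hepatocyte markers tested. The part of these markers in the results below was not tested either. The 10 fibroblast, immune and endothelial markers summed to 13.9 to 15.8 CPM and 12.1 to 16.2 CPM.

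Depletion of SRSF11 came with higher RNA of 6 of the 10 genes: SREBF1, ACLY, ACACA, FASN, SCD and ACSS2. ME1 and FADS1 were lower, and ELOVL6 and FADS2 were not called in either direction. A gene was called when its adjusted p was under 0.05 in edgeR's quasi-likelihood test with Benjamini-Hochberg adjustment over 15801 tested genes. By that rule 13.2% of all tested genes were called higher and 11.4% lower (24.6% in either direction), and 19.2% and 15.4% among the 8556 genes at least as abundant as FADS2, the least abundant of the 10. Other lists below are set beside the shares of all tested genes. Those shares are lower than among the more abundant genes, so a list slightly above them may not exceed genes of like abundance. Each change was small: the 10 log2 fold changes ran from -0.25 to 0.32 with a median of 0.21, beside 0 over all tested genes. None of the 10 reached a log2 fold change of 1 in size together with a call, which 1.09% of all tested genes did. The groups did not overlap for the same 8 called genes, 6 higher and 2 lower, where 20.0% and 18.9% of all tested genes did not overlap in those directions. In RNA from whole cultures, fewer cells of a kind and less RNA per cell cannot be told apart.

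**Figure D1:**
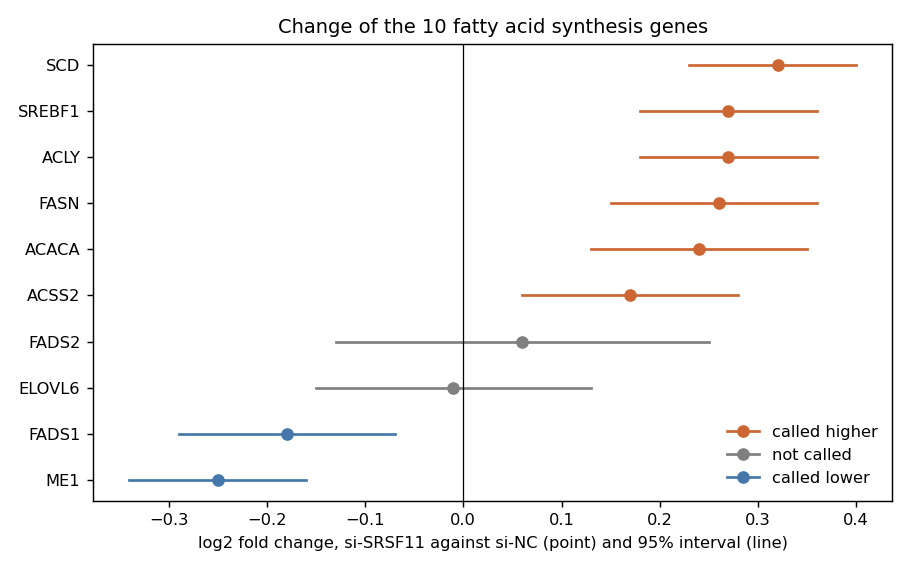
The log2 fold change of si-SRSF11 against si-NC is plotted for each of the 10 genes as a point, with a line for its 95% interval, and genes are ordered by fold change and coloured by call. SCD stands highest at 0.32 and ME1 lowest at -0.25, and the lines of FADS2 and ELOVL6 cross 0.

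Promoters are given for SCD, ACLY and ACSS2, which were called higher and were chosen because they hold CCAAT, and for ME1 and FADS1, which were called lower. SREBF1 and ACACA were also called higher, hold no CCAAT and are not printed. The printed set therefore cannot show whether CCAAT goes with the direction of a call. Each run is the 300 bases from 250 before to 50 after the RefSeq transcription start on GRCh38.p14, read 5′ to 3′ on the strand of the gene, and capitals mark CCAAT or its reverse complement ATTGG, the core bound by NF-Y. They lie at chr10:100346983-100347282 (plus strand) for SCD, chr17:41918973-41919272 (minus strand) for ACLY, chr20:34874739-34875038 (plus strand) for ACSS2, chr6:83431002-83431301 (minus strand) for ME1 and chr11:61816954-61817253 (minus strand) for FADS1.
SCD: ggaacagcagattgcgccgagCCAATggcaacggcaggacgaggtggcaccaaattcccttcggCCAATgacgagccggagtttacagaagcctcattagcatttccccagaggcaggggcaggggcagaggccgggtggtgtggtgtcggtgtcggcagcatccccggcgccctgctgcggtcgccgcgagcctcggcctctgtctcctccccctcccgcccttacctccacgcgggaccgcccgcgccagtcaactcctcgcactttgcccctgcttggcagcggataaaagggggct
ACLY: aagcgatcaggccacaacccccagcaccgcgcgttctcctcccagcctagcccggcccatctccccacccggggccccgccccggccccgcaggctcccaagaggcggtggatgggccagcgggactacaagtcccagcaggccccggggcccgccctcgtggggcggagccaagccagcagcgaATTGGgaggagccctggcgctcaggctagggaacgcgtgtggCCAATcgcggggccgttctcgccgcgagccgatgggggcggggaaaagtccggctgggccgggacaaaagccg
ACSS2: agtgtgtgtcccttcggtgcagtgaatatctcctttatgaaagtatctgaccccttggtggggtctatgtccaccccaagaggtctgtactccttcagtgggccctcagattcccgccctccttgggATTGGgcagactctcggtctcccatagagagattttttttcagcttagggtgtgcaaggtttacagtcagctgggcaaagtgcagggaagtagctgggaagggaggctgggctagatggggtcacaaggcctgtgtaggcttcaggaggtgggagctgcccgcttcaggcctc
ME1: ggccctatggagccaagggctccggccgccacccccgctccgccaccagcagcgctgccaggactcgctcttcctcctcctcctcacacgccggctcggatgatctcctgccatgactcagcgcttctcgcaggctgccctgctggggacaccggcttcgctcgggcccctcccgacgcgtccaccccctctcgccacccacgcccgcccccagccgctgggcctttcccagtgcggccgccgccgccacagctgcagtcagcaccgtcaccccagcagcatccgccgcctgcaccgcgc
FADS1: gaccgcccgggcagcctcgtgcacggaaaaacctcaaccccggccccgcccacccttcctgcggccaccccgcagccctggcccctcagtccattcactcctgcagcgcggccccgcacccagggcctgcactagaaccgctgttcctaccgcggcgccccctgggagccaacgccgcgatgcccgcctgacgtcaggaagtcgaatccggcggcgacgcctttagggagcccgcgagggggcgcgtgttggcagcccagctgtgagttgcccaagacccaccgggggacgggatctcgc

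Of the 10 genes, 9 matched a RefSeq promoter entry and FASN did not. CCAAT was found on either strand in 3 of these 9 promoters (33.3%), against 35.7% of all 27305 promoters of the same length and 13 of 16 promoters of the sterol genes (81.2%). SCD held CCAAT at positions -229 and -186, ACLY at -23 with ATTGG at -65, and ACSS2 held ATTGG at -123, counted from the start site. SREBF1 and ACACA were called higher without CCAAT in the window, and ME1 and FADS1 were called lower without it. A single start was searched per gene, and the ACSS2, ACLY and FADS1 windows lie inside the annotated gene spans. Any other starts of these genes were not searched. The sterol regulatory element, searched as TCACNCCAC on both strands, was in 0 of the 9 windows, in 0 of 16 sterol gene windows and in 1.15% of all promoters. The window of INSIG1, an SREBP target, held no match either. A search for an exact sequence in a short window thus cannot show that a gene lacks this element. The E-box CACGTG was in 0 of the 9 windows, in 2 of the 16 and in 7.43% of all, and the GC box GGGCGG in 8 of the 9, in 15 of the 16 and in 44.6% of all. These are matches of letters and were not tested, and no CCAAT match overlapped a GC box match in the windows of the 10 genes.

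SREBF1 (ENSG00000072310, chromosome 17 of GRCh38, 17810399 to 17837002, minus strand) encodes the precursor of SREBP1. Its level was 286, 274 and 298 CPM in si-NC replicates 1, 2 and 3 and 351, 333 and 350 CPM in si-SRSF11 replicates 1, 2 and 3. All 3 si-SRSF11 libraries lay above all 3 si-NC libraries. SREBF1 rose by 20.5%, from 286 ± 11.9 to 345 ± 9.94 CPM (SD, n = 3), which is 0.27 on the log2 scale (standard error 0.048, 95% interval 0.18 to 0.36, adjusted p = 0.00024 by edgeR). An exact two-sided permutation test of 3 samples against 3 cannot give a p under 0.10, which holds for each gene below. The exons of SREBF1 share 556 bp (6.92% of its exon bases) with RAI1 on the opposite strand, and no source says that reads were counted by strand. The 1a and 1c transcripts of SREBF1, which start at different first exons, are not separated in gene counts. MIR33B, a microRNA encoded within SREBF1, had 0 counts in each library. Poly(A) RNA read in pairs of 150 bp does not measure a mature microRNA, so its level is not known from these counts.

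SREBF2 was not called in either direction. Its levels were 224, 219 and 229 CPM in si-NC and 227, 219 and 214 CPM in si-SRSF11, so the groups overlapped, and its log2 fold change was -0.03 (interval -0.12 to 0.07, adjusted p = 0.73 by edgeR). The log2 ratio of SREBF1 to SREBF2 counts within a library was 0.35, 0.32 and 0.38 in si-NC and 0.63, 0.60 and 0.71 in si-SRSF11. It was higher in every si-SRSF11 library, by 0.30 on average (p = 0.10, the lowest an exact permutation test can give here).

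INSIG1, which retains the SCAP and SREBP complex in the endoplasmic reticulum and is itself a target of SREBPs, changed most among the 19 regulators of SREBP listed. It stood at 38.1, 35.1 and 36.7 CPM in si-NC and at 85.1, 74.7 and 88.8 CPM in si-SRSF11, with a wide gap between the groups. Its log2 fold change was 1.18 (adjusted p = 6.2e-11 by edgeR, standard error 0.067), above that of each of the 10 genes. Relative to INSIG1, the log2 ratio of SREBF1 counts was lower in every si-SRSF11 library, from 2.96 ± 0.056 to 2.06 ± 0.091 (SD, n = 3; exact two-sided permutation test, p = 0.10). Of the 19 regulators 3 rose (15.8%, beside 13.2% of all tested genes) and 3 fell (15.8%, beside 11.4%). The other 13 did not pass the test, and the median log2 fold change of the 19 was -0.01. NFYA, a subunit of NF-Y, rose by 0.33 on the log2 scale (adjusted p = 0.00099 by edgeR), while INSIG2, the second INSIG protein, fell by 0.32 on the log2 scale (adjusted p = 0.0018 by edgeR). The other calls were NR1H3 (0.30), which encodes the oxysterol receptor LXR alpha, NFYC (-0.25), another NF-Y subunit, and RXRA (-0.16), the partner of LXR, and these were named after their values were seen. SCAP, the escort itself, had a log2 fold change of 0.07 (adjusted p = 0.30 by edgeR).

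Both enzymes that supply cytosolic acetyl-CoA were called higher. ACLY, ATP citrate lyase (ENSG00000131473, chromosome 17, 41866908 to 41930542, minus strand), cleaves citrate. It stood at 328, 329 and 319 CPM in si-NC and at 387, 409 and 380 CPM in si-SRSF11, with no overlap. The rise was 20.4%, from 325 ± 5.17 to 392 ± 15.2 CPM (SD, n = 3), a log2 fold change of 0.27 (standard error 0.046, interval 0.18 to 0.36, adjusted p = 0.00018 by edgeR). ACLY shares 156 bp of exon with the antisense gene AC125257.2, which had 0 counts in all 6 libraries.

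ACSS2 (ENSG00000131069, chromosome 20, 34872146 to 34927962, plus strand) makes acetyl-CoA from acetate in the cytosol and nucleus. Its levels were 59.5, 57.8 and 56.1 CPM in si-NC and 66.8, 65.4 and 63.2 CPM in si-SRSF11. The groups stood apart by a narrow margin. ACSS2 rose by 12.7%, from 57.8 ± 1.70 to 65.1 ± 1.84 CPM (SD, n = 3), a log2 fold change of 0.17 (standard error 0.056, interval 0.06 to 0.28, adjusted p = 0.027 by edgeR). This call was not stable. It was lost with library size scaling (log2 fold change 0.14, adjusted p = 0.083 by edgeR), with DESeq2 (adjusted p = 0.068) and with no filter on low counts (adjusted p = 0.06 by edgeR). It was also lost without si-NC replicate 1, 2 or 3 (adjusted p = 0.051, 0.074 and 0.12 by edgeR) and without si-SRSF11 replicate 1 or 2 (adjusted p = 0.078 and 0.069 by edgeR). Set against ACLY, the log2 ratio of ACSS2 counts was lower in every si-SRSF11 library, at -2.59 ± 0.055 against -2.49 ± 0.028 in si-NC (SD, n = 3; exact two-sided permutation test, p = 0.10).

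SLC25A1, the mitochondrial carrier that exports citrate and is not one of the 10, rose as well. Its levels were 144, 124 and 147 CPM in si-NC and 168, 162 and 177 CPM in si-SRSF11, a log2 fold change of 0.29 (adjusted p = 0.00075 by edgeR, standard error 0.058). ACSS1, the mitochondrial acetate enzyme, was named after its values were seen as the 1 gene among 24 other fatty acid synthesis genes with a call past a log2 fold change of 1. It had 27, 23 and 27 counts in si-NC and 51, 63 and 64 counts in si-SRSF11, a log2 fold change of 1.11 (adjusted p = 0.00095 by edgeR, standard error 0.23) at a low level.

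ACACA, acetyl-CoA carboxylase alpha (ENSG00000278540, chromosome 17, 37084988 to 37406818, minus strand), makes the malonyl-CoA from which the chain is built. It stood at 119, 117 and 115 CPM in si-NC and at 141, 147 and 125 CPM in si-SRSF11. The groups did not overlap, and si-SRSF11 replicate 3 was nearest to si-NC. ACACA rose by 18.0%, from 117 ± 2.32 to 138 ± 11.3 CPM (SD, n = 3), a log2 fold change of 0.24 (standard error 0.055, interval 0.13 to 0.35, adjusted p = 0.0026 by edgeR). ACACB, the carboxylase at the mitochondrial surface whose malonyl-CoA restrains fatty acid import, stood at 13.31, 12.96 and 14.38 CPM in si-NC and 13.2, 11.3 and 11.8 CPM in si-SRSF11, with a log2 fold change of -0.16 (adjusted p = 0.29 by edgeR). Within libraries, the log2 ratio of ACACA to ACACB was 3.11 ± 0.10 in si-NC and 3.51 ± 0.17 in si-SRSF11 (SD, n = 3), higher in every si-SRSF11 library (exact two-sided permutation test, p = 0.10).

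FASN, fatty acid synthase (ENSG00000169710, chromosome 17, 82078333 to 82098332, minus strand), builds palmitate. Its levels were 772, 754 and 832 CPM in si-NC and 1028, 914 and 880 CPM in si-SRSF11. Every si-SRSF11 library was above every si-NC library, with si-SRSF11 replicate 1 highest and replicate 3 lowest of that group. The rise was 19.7%, from 786 ± 41.1 to 941 ± 77.7 CPM (SD, n = 3), a log2 fold change of 0.26 (standard error 0.054, interval 0.15 to 0.36, adjusted p = 0.0011 by edgeR). The spread between replicates was larger for FASN than for SCD, with a coefficient of variation of 5.23% against 1.09% in si-NC and of 8.26% against 5.15% in si-SRSF11.

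ME1 (ENSG00000065833, chromosome 6, 83210389 to 83431071, minus strand), the cytosolic malic enzyme, makes NADPH while turning malate into pyruvate, and it was the member that fell most. It stood at 139, 141 and 139 CPM in si-NC and at 119, 116 and 119 CPM in si-SRSF11. The replicates were tight and the groups well apart. ME1 was 15.7% lower in si-SRSF11, at 118 ± 1.68 against 140 ± 0.947 CPM (SD, n = 3), a log2 fold change of -0.25 (standard error 0.046, interval -0.34 to -0.16, adjusted p = 0.00039 by edgeR). Among 8 other genes of NADPH supply 1 rose (12.5%, beside 13.2% of all tested genes) and 1 fell (12.5%, beside 11.4%). The remaining 6 did not pass the test, and the median log2 fold change of the 8 was -0.01. PGD, of the pentose phosphate pathway, rose by 0.18 on the log2 scale (adjusted p = 0.0077 by edgeR), and ME2, a mitochondrial malic enzyme, fell by 0.17 on the log2 scale (adjusted p = 0.011 by edgeR). IDH1, which makes cytosolic NADPH from isocitrate, had a log2 fold change of -0.01 and is named as a usual source of NADPH beside ME1.

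SCD, stearoyl-CoA desaturase (ENSG00000099194, chromosome 10, 100347124 to 100364834, plus strand), places the first double bond in palmitate and stearate. It had 740, 739 and 754 CPM in si-NC and 971, 932 and 876 CPM in si-SRSF11. The si-NC libraries were almost level, and every si-SRSF11 library was above them. SCD rose by 24.5%, from 744 ± 8.14 to 926 ± 47.7 CPM (SD, n = 3), the highest log2 fold change of the 10 genes at 0.32 (standard error 0.045, interval 0.23 to 0.40, adjusted p = 2.2e-05 by edgeR). The log2 ratio of SCD to FASN counts overlapped between the groups, at -0.08 ± 0.059 in si-NC and -0.02 ± 0.057 in si-SRSF11 (SD, n = 3; exact two-sided permutation test, p = 0.40).

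ELOVL6 (ENSG00000170522, chromosome 4, 110045846 to 110199199, minus strand) extends palmitate to stearate. Its levels were 40.7, 43.5 and 38.6 CPM in si-NC and 39.8, 43.9 and 38.2 CPM in si-SRSF11. The 2 groups covered nearly the same range. The log2 fold change was -0.01 (adjusted p = 0.94 by edgeR, standard error 0.070), and its interval of -0.15 to 0.13 lies below the estimates for SREBF1, ACLY, ACACA, FASN, SCD and ACSS2, a comparison that was not itself tested. Its sign turned with single libraries, to 0.04 without si-NC replicate 2 and to 0.03 without si-SRSF11 replicate 3.

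FADS1 and FADS2 encode the delta-5 and delta-6 desaturases that make polyunsaturated fatty acids from dietary precursors. On chromosome 11 the annotated span of FADS1 lies within that of FADS2, on the opposite strand. FADS1 (ENSG00000149485, 61799625 to 61829318, minus strand) stood at 77.9, 78.2 and 78.3 CPM in si-NC and at 73.3, 67.3 and 66.2 CPM in si-SRSF11. Every si-SRSF11 library was below the si-NC libraries, which were almost identical. FADS1 was 11.8% lower, at 68.9 ± 3.87 against 78.1 ± 0.212 CPM (SD, n = 3), a log2 fold change of -0.18 (standard error 0.055, interval -0.29 to -0.07, adjusted p = 0.019 by edgeR). Without si-NC replicate 1, 2 or 3 or si-SRSF11 replicate 2 the call was lost (adjusted p = 0.062, 0.058, 0.059 and 0.076 by edgeR), and the log2 fold change was then -0.18, -0.18, -0.18 and -0.16.

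FADS2 (ENSG00000134824, 61792980 to 61867354, plus strand) was the least abundant of the 10, with 257 to 321 counts in a library. Its levels were 17.7, 17.0 and 16.8 CPM in si-NC and 16.9, 19.8 and 17.1 CPM in si-SRSF11. Only si-SRSF11 replicate 2 stood above the si-NC range. The log2 fold change was 0.06 (standard error 0.096, interval -0.13 to 0.25, adjusted p = 0.68 by edgeR), and -0.01 without si-SRSF11 replicate 2. The log2 ratio of FADS1 to FADS2 counts was 2.14, 2.20 and 2.22 in si-NC and 2.12, 1.77 and 1.96 in si-SRSF11, lower by 0.24 on average (exact two-sided permutation test, p = 0.10). This difference was -0.15 without si-SRSF11 replicate 2 and -0.33 without si-SRSF11 replicate 1. FADS1 and FADS2 share 490 bp of exon on opposite strands, so reads there cannot be assigned without strand. FADS2 also shares 49 bp of exon with FEN1 on the same strand, which had 785 to 960 counts in a library. FADS3, the neighbour of FADS1 and FADS2 in the same gene family, also fell, with a larger change than FADS1. It stood at 128, 133 and 132 CPM in si-NC and at 98.5, 97.2 and 95.1 CPM in si-SRSF11, a log2 fold change of -0.43 (adjusted p = 6.3e-07 by edgeR, standard error 0.047).

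**Figure D2:**
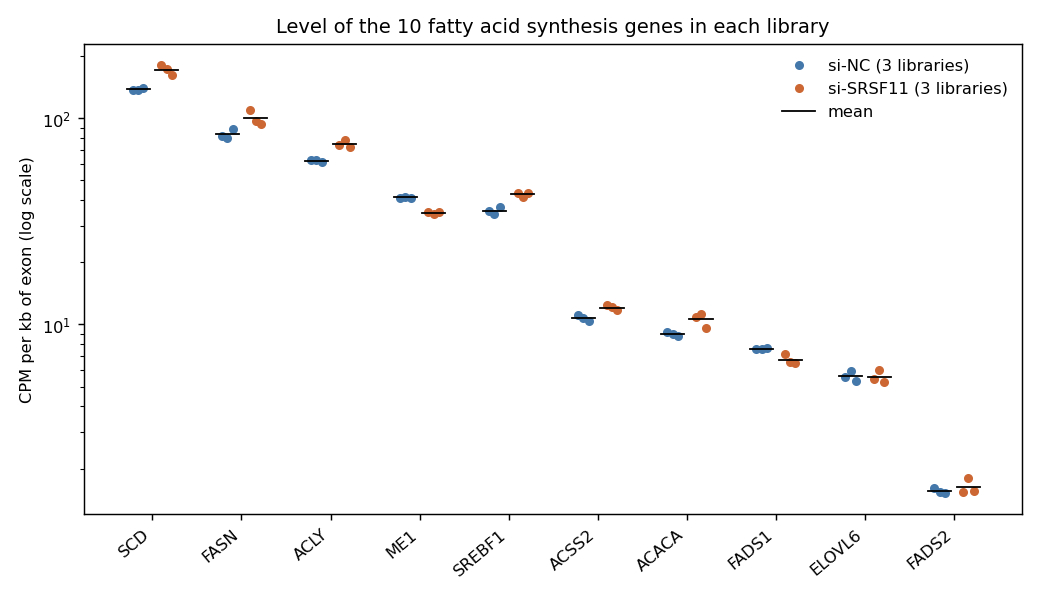
The level of each of the 10 genes in each library is plotted as CPM per kb of exon on a log axis, with points for the 3 libraries of each group and a bar at the group mean. Levels run from 139 CPM per kb for SCD to 1.56 for FADS2 in si-NC, and SREBF1 passes ME1 in si-SRSF11.

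Per kb of exon, SCD was the most abundant of the 10 genes in si-NC at 139 ± 1.52 CPM per kb (SD, n = 3), followed by FASN at 83.9 ± 4.39 and ACLY at 62.4 ± 0.992. ME1 (41.5 ± 0.281) and SREBF1 (35.6 ± 1.48) came next, then ACSS2 (10.7 ± 0.316), ACACA (8.99 ± 0.178), FADS1 (7.63 ± 0.0207) and ELOVL6 (5.61 ± 0.338), with FADS2 last at 1.56 ± 0.046. No neighbours in this order overlapped between libraries in either group. In si-SRSF11 the order of levels was the same but for SREBF1 and ME1, which changed places at 42.9 ± 1.24 and 34.9 ± 0.499 CPM per kb (SD, n = 3). The summed level of the 10 genes was 2579, 2550 and 2647 CPM in si-NC and 3194, 3048 and 2914 CPM in si-SRSF11, higher in every si-SRSF11 library. FASN and SCD made up 58.5% to 59.9% of that sum in si-NC and 60.3% to 62.6% in si-SRSF11, so the sum follows these 2 genes. In si-SRSF11, replicate 3 was the lowest library for FASN, SCD, ACLY, ACACA and ACSS2.

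Of 24 other genes of fatty acid synthesis and elongation, 18 passed the filter on low counts. Of these 7 rose (38.9%, beside 13.2% of all tested genes), 1 fell (5.56%, beside 11.4%) and 10 did not pass the test. Their median log2 fold change was 0.10. HACD3, a dehydratase of the elongation cycle, rose by 0.27 on the log2 scale, from 116 ± 2.55 to 139 ± 1.80 CPM (SD, n = 3; adjusted p = 0.00019 by edgeR). FADS3 was the 1 gene that fell. ELOVL2, ELOVL4 and ELOVL5, elongases of polyunsaturated chains, were among the 6 genes that did not pass the filter, and ELOVL5 had between 0 and 6 counts in a library.

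Further along, where acyl-CoA is activated and built into glycerolipids, 19 of 20 listed genes were tested. Of these 3 rose (15.8%, beside 13.2% of all tested genes), 3 fell (15.8%, beside 11.4%) and 13 did not pass the test (median log2 fold change 0.07). GPAT3, which starts glycerolipid assembly, fell by 0.44 on the log2 scale, from 50.6 ± 1.06 to 37.2 ± 0.586 CPM (SD, n = 3; adjusted p = 1.4e-05 by edgeR). Among the acyl-CoA synthetases, ACSL5 rose by 0.37 on the log2 scale (adjusted p = 9.4e-05 by edgeR) and ACSL1 fell by 0.39 on the log2 scale (adjusted p = 1e-04 by edgeR), while ACSL3 and ACSL4, named to complete the family in this list, had log2 fold changes of 0.06 and 0.07 and were not called.

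**Figure D3:**
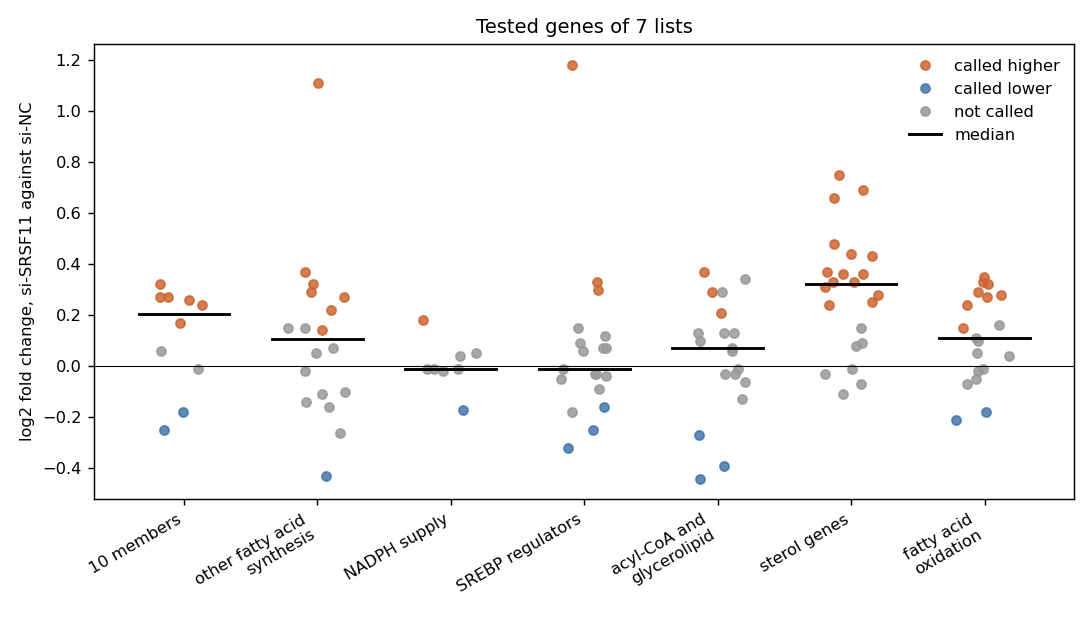
Each point is the log2 fold change of si-SRSF11 against si-NC of 1 tested gene, grouped by list, coloured by call, with a bar at the median of the list. The sterol genes have no gene called lower and a median of 0.32, the 10 fatty acid synthesis genes have calls on both sides and a median of 0.21, and INSIG1 (1.18) and ACSS1 (1.11) stand apart in their lists.

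Set beside the sterol genes, the fatty acid genes had a lower median change and calls on both sides of 0. All 22 sterol genes listed were tested, of which 15 were called higher (68.2%), 0 lower and 7 in neither direction. Over all tested genes 13.2% were called higher and 11.4% lower, and 19.2% and 15.4% among those at least as abundant as FADS2. At an unadjusted p under 0.05 the edgeR test put 0 of the 22 lower, and DESeq2 called 0 lower. Their log2 fold changes ran from -0.11 to 0.75 with a median of 0.32, where the 10 fatty acid genes had 6 called higher (60%), 2 lower, and a median of 0.21. The share called higher was thus close in both lists, and the difference between their medians was not tested. These lists were drawn up with earlier results of the sterol genes known, so the sterol count is not independent evidence of its direction.

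The largest sterol gene changes exceeded those of any of the 10. SQLE, squalene epoxidase, rose from 67.7 ± 1.25 to 114 ± 1.02 CPM (SD, n = 3), a log2 fold change of 0.75 (adjusted p = 6.1e-10 by edgeR, standard error 0.050). DHCR7, which reduces 7-dehydrocholesterol to cholesterol, rose by 0.69 on the log2 scale (adjusted p = 1.2e-09 by edgeR). The interval of SCD, 0.23 to 0.40, lies below both estimates. HMGCS1, the synthase at the start of the sterol branch and a common SREBP target, was not called. It stood at 46.7, 46.8 and 45.2 CPM in si-NC and at 45.4, 45.5 and 44.8 CPM in si-SRSF11, a log2 fold change of -0.03 (adjusted p = 0.76 by edgeR), with 15.0% of its exon bases shared with other genes. CYP51A1 and ACAT2, named for this limit, share 83.2% and 52.3% of their exon bases. CYP51A1 had the lowest log2 fold change of the sterol genes (-0.11, not called), and ACAT2 was called higher. FASN counts set against those of HMGCS1 gave a log2 ratio that was higher in every si-SRSF11 library, at 4.37 ± 0.11 against 4.09 ± 0.10 in si-NC (SD, n = 3; exact two-sided permutation test, p = 0.10).

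The summed level of the 22 sterol genes was 1493, 1473 and 1500 CPM in si-NC and 1955, 1917 and 1946 CPM in si-SRSF11. The sum of the 10 fatty acid genes divided by that of the sterol genes was 1.73, 1.73 and 1.76 in si-NC and 1.63, 1.59 and 1.5 in si-SRSF11. Every si-SRSF11 library was below every si-NC library, and both sums were higher in si-SRSF11 than in si-NC.

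**Figure D4:**
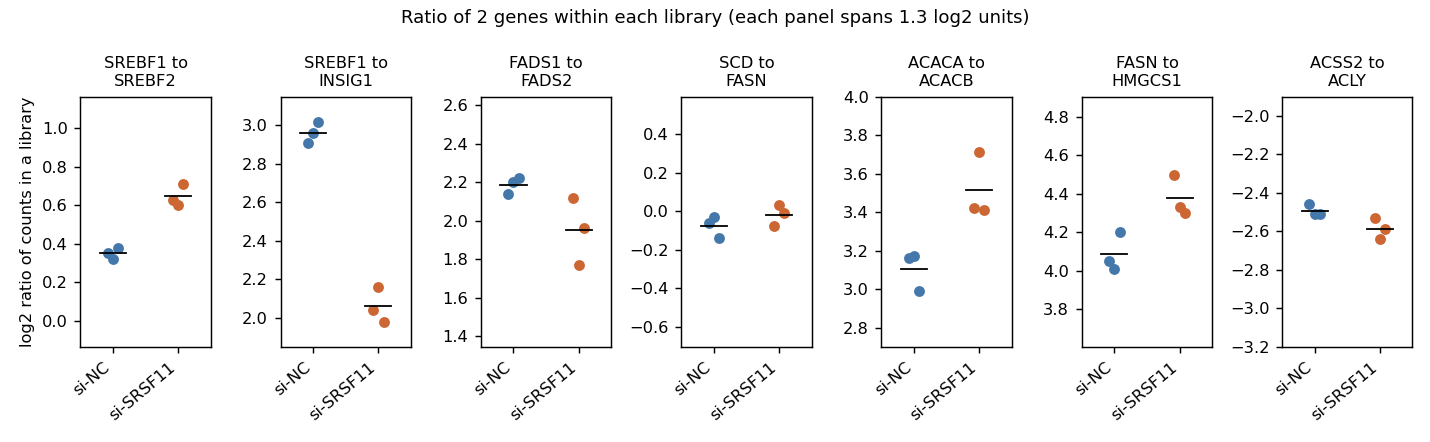
The log2 ratio of counts of 2 genes in the same library is plotted for 7 pairs, with points for the 3 libraries of each group, a bar at the mean, and 1.3 log2 units on the axis of each panel. SREBF1 to INSIG1 moves furthest, from 2.96 to 2.06, and SCD to FASN is the pair whose groups overlap.

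The within-library ratios do not depend on how libraries are scaled, and 7 pairs were computed. For 6 of the 7 the groups did not overlap, each with an exact p of 0.10, and SCD to FASN had an exact p of 0.40. Adjusted over the 7 pairs by Benjamini-Hochberg, the smallest of these p was 0.12 and that of SCD to FASN 0.40 (exact permutation tests).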

How the data were processed

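RNA-seq was analysed from 6 LoVo libraries, 3 transfected with si-NC and 3 with si-SRSF11, grouped by the labels. The authors deposited whole-number counts of reads per gene, without normalization or a filter on low values, and per the labels on the hg38 build. The aligner, the counting program and its strand setting are not given in the sources used here. All 58735 genes matched GENCODE 29 identifiers. Depth was 14369525 to 16685719 counts per library. The standard error is the absolute log2 fold change divided by the square root of the edgeR F statistic. The 95% intervals reach 1.96 standard errors to each side. This normal quantile makes them somewhat narrower than intervals matched to the F test.

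A gene was tested when 3 or more libraries held 10 or more of its counts (15801 genes). The quasi-likelihood functions of edgeR (version 4.0.16, under R 4.3.3), glmQLFit and glmQLFTest, were run on TMM-scaled libraries with condition as the term, and p was adjusted by Benjamini-Hochberg over all tested genes. Levels are CPM, divided by exon length in kb where genes are compared. For ratios within a library, all exchanges of sample labels were enumerated (exact permutation test, two-sided). The scripts were tested on simulated data. Alternatives were library size and upper quartile scaling, DESeq2 (version 1.42.0), other filters, protein-coding genes, a replicate block and each library left out. Replicate numbers were not taken to pair the samples in the main fit.

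The members and lists were chosen with earlier results of these data known. Genes named are the 10 members, SRSF11, SREBF2, INSIG1, the partners in the ratios, at most 3 called genes of each other list by smallest adjusted p, and, where 5 or fewer, those called against the majority of a list. Others are marked, or named as enzymes of the same step. Some genes of these lists are not reported here by name.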

Additional observations from a re-analysis of the deposited data

How the results depend on the processing

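Of 289 recomputed values, 12 kept their direction and lost the call, and 4 fitted changes turned sign or reached 0. A count was taken as moved past 1.5 times its main value, which held for 4 counts, although smaller shifts were more frequent. The other 269 kept their direction and, where tested, their side of the threshold, or stayed within that range. With each library left out in turn, 1 to 2 of the 10 genes were called lower, since FADS1 lost its call in 4 of these fits, and 5 to 6 were called higher. Library size scaling, DESeq2 and no filter on low counts each called 5 of the 10 higher, since ACSS2 lost its call. SREBF1, ACLY, ACACA, FASN, SCD and ME1 kept their calls in all 13 alternatives. With 1 library left out the log2 fold change of ELOVL6 ran from -0.07 to 0.04 and that of FADS2 from -0.01 to 0.10. ELOVL6 changed sign or reached 0 without si-NC replicate 2 (0.04), si-SRSF11 replicate 1 (0) and si-SRSF11 replicate 3 (0.03), and FADS2 changed sign without si-SRSF11 replicate 2 (-0.01). The cause of these shifts was not tested beyond the removal of the library. The median log2 fold change of the 10 genes was 0.168 to 0.222 with 1 library left out. Over all genes, 2081 were called higher and 1805 lower, against 1585 and 2289 under library size scaling, which shifted the median gene by -0.034, and 1570 and 1502 with DESeq2.

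Deviations from the group means correlated by -0.01, 0.179 and 0.166 between libraries of the same number over 8884 genes. The best si-SRSF11 match was the same number for si-NC replicates 2 and 3, and replicate 3 for si-NC replicate 1. These values do not settle whether the samples were paired, and the main fit did not pair them. With the replicate block, 2147 genes were called higher and 1889 lower, 6 and 2 of the 10 genes kept those counts, and 16 sterol genes were called higher.

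Depth limits FADS2, whose counts ran from 257 to 321, and its interval leaves a change of the size of SREBF1 out but one of the size of ACSS2 in.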

Other observations

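Fatty acid oxidation is the opposite pathway. Of 20 genes listed, 19 were tested, of which 8 rose (42.1%, beside 13.2% of all tested genes), 2 fell (10.5%, beside 11.4%) and 9 did not pass the test, with a median log2 fold change of 0.11. CPT1A, which commits acyl chains to mitochondrial import and is inhibited by malonyl-CoA, stood at 159, 160 and 152 CPM in si-NC and at 202, 196 and 189 CPM in si-SRSF11, with no overlap. Its log2 fold change was 0.32 (adjusted p = 3.9e-05 by edgeR's quasi-likelihood test, standard error 0.048), the same size as that of SCD. ACAA2, a mitochondrial thiolase, rose by 0.33 and SLC25A20, the carnitine carrier, by 0.35 on the log2 scale (adjusted p = 4.4e-05 and 0.00073 by edgeR). The 2 genes that fell were ECI1, an isomerase for unsaturated chains (-0.21), and ACAA1, the peroxisomal thiolase (-0.18).

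Of 8 listed targets of LXR, the oxysterol receptor that also drives SREBF1, 5 were tested. NR1H3 alone was called (20%, beside 13.2% of all tested genes), higher by 0.30 (adjusted p = 0.011 by edgeR). The median log2 fold change of the 5 was 0.27, and 4 of them were above 0. For 3 of the 5 the groups did not overlap, each higher in si-SRSF11, as for 20.0% of all tested genes. ABCA1, the cholesterol exporter and the best known target, had 10, 5 and 4 counts in si-NC and 16, 15 and 15 counts in si-SRSF11. At these low counts its log2 fold change was 1.17 (interval 0.29 to 2.04, adjusted p = 0.06 by edgeR), and it is named after its values were seen. ABCG5 had 0 counts in each library.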
